A study of Oncorhynchus kisutch with 9 samples.

Results

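The gene described here is col1a2, the gene of the type I collagen alpha-2 chain. On the spotted salmonid cDNA array it was represented by 2 neighbouring spots out of 8736, chosen because the platform's probe-to-gene table names them col1a2. The table gives both spots the gene identifier 100135811. They have the identifiers 9020205 (spot 1) and 9020206 (spot 2) and make up 1 of 4368 spot pairs, each an odd-numbered column and the next even one. The table names 8 spots in all, for 4 genes. Among these, col1a2 was singled out with its ratios known, because it had the largest difference. The ratios below are therefore a description, and no test was made of them.

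RNA from livers of adult coho salmon (Oncorhynchus kisutch) was labelled with Cy3 and Cy5 and hybridised to 9 arrays. The RNA came as 3 pools, each of equal amounts from 5 fish: full ration growth hormone transgenic fish (T), ration-fed growth hormone transgenic fish (R), and non-transgenic control fish (C). Both transgenic pools thus carry the transgene and differ in feeding. The labels and files used here do not state the promoter of the transgene, the age of the fish in years or how much they were fed. There were 3 arrays for each of the comparisons T against C (written T/C), R against C (R/C) and T against R (T/R), 1 of them with the dyes exchanged. All 3 arrays of a comparison carry the same pooled RNAs, so each SD below is the spread between hybridisations of these pools, and variation between fish was not measured.

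Type I collagen is the main fibrous protein of bone, skin, tendon and scar. Its alpha-2 chain winds together with alpha-1 chains into a helix that is secreted as procollagen and trimmed into fibrils outside the cell. In rainbow trout, a related salmonid, type I collagen can also hold an alpha-3 chain. In mammalian liver this collagen is made mainly by stellate cells and portal fibroblasts, with little from hepatocytes, and its deposition marks fibrosis. In humans, growth hormone raises collagen synthesis in tendon and muscle. In RNA of whole liver, a difference in the number of collagen-producing cells and a difference in col1a2 RNA per cell cannot be told apart. The tissue could not be checked against other markers, because of the 8 listed for stellate cells and fibroblasts only col1a2 is named on the array, and of the 5 listed for hepatocytes the number named is 0.

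The coho RefSeq gene table (assembly Okis_V2) holds 1 gene with the symbol col1a2, with 3 transcripts, among 29 genes with a collagen symbol. Of these collagen symbols, 1 is named on the array, so no alpha-1 chain or other collagen can be set beside col1a2. The gene identifier of the array's table matched 0 of the coho gene identifiers, so the match to coho rests on the symbol. A spotted cDNA can also bind RNA of related sequence, and the part of other collagens in the signal was not tested.

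The deposited values were read as log2 ratios of the 2 dyes, and the labels do not say which dye is on top. All 9 array medians lay below 0, between -1.39 and -0.59. The median of each array was subtracted, and the sign was turned according to the dye labels so that all arrays of a comparison run the same way. Direction 1 is a turned ratio above 0, and direction 2 a ratio below 0. If the deposited ratios are Cy5 over Cy3, direction 1 means that the first-named pool was higher, and if they are Cy3 over Cy5, that it was lower. The relative placing of the 3 pools on one line does not depend on this, but which end is high does.

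By the dye-balanced means, the col1a2 difference was widest between the transgenic pools, T and R, with the control pool placed between them. The place of the control pool is uncertain. With the dye trend described below removed, the R/C SD over arrays (0.39) was larger than the size of its mean (-0.30). Spot 2 then lay on the other side of 0 on R/C array 1. Among 23 alternative settings R/C lay on the other side of 0 in 2, and T/C in 1. Each of these crossings came in a setting that leaves the dyes unbalanced, so they do not bear on the place of the control pool. The T/R difference was 1.61-fold in direction 1 (log2 ratio 0.69 ± 0.83, SD over 3 arrays). T/C was 1.36-fold in the same direction (0.45 ± 0.90), and R/C was 1.13-fold in direction 2 (-0.18 ± 1.03). These are dye-balanced means, in which arrays of like dye order are averaged first and then the 2 orders. Each SD is taken about the plain mean of the 3 arrays and not about the dye-balanced mean. On centred values the plain means were 0.92 for T/R, 0.20 for T/C and 0.10 for R/C. On centred values the SD also holds the distance between the dye orders, given array by array below. Once the dye trend described below was removed, the ratios were 0.63 ± 0.09 for T/R, 0.28 ± 0.10 for T/C and -0.30 ± 0.39 for R/C. The drop in SD is in part the loss of the distance between the dye orders, and is not all a gain in precision.

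Before any turning or trend removal, the col1a2 pair stood above the array median on 8 of 9 arrays. The lowest values were those of T/C array 3 and T/R array 3 (0.01), both with T in Cy3. Its centred ratio ran from -0.00015 to 1.57, and 51.0% to 97.7% of all pairs lay below it on the same array. Averaged over the 9 arrays it was 0.76, with 84.9% of pairs below. In that average the pool differences of the loop cancel if the ratios follow the dyes, so the 0.76 is a ratio between dyes and says nothing about the pools. The arrays differed in how strongly their ratios followed this average. A lowess curve of each array on the 9-array mean (fraction 0.3, 3 iterations) reached heights between 0.42 and 0.95 for the col1a2 pair, as the mean over its spots. Subtracting this curve is called removal of the dye trend here. A pool difference that happened to follow the mean would be subtracted too.

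**Figure D1:**
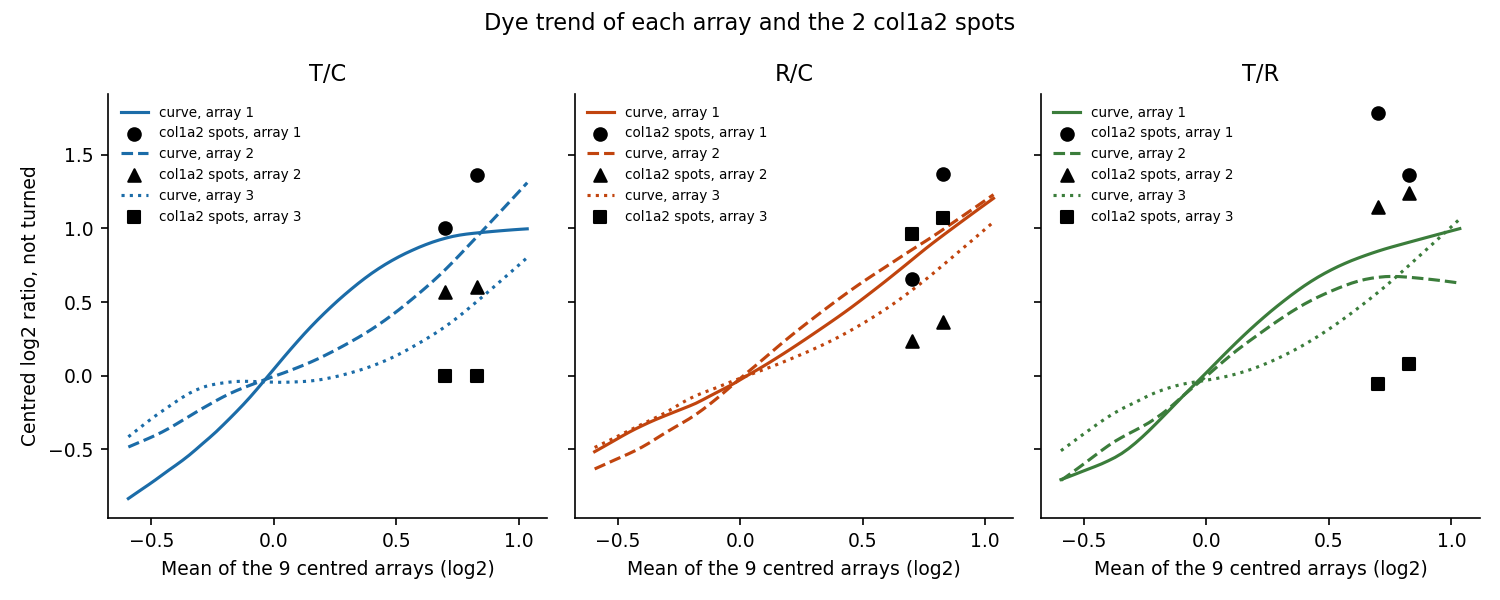
Centred log2 ratios (y axis, not turned) against the mean of the 9 centred arrays (x axis, log2). Lines are the lowess curve of each array and black symbols the 2 col1a2 spots on it. The col1a2 spots lie at means of 0.70 and 0.83, where the curves of T/C array 1 and array 3 stand far apart (0.95 against 0.42 at the pair).

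In T/R, the centred and turned log2 ratios of spot 1 were 1.79, 1.15 and 0.06 on arrays 1, 2 and 3. Spot 2 had 1.36, 1.24 and -0.08. Both spots were far above 0 on arrays 1 and 2, which have T in Cy5, and near 0 on array 3, which has T in Cy3. Removal of the dye trend gave 0.94, 0.48 and 0.62 for spot 1, and 0.45, 0.58 and 0.67 for spot 2. All 6 spot values then lay in direction 1, and array 3 no longer stood apart from the others. Leaving out array 3 gave a centred value of 1.38, whereas on values without the dye trend leaving out any of the 3 arrays gave 0.59 to 0.67. The curves were not refitted, here or below, so a left-out array still had a part in them.

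In T/C, the centred and turned values of spot 1 were 1.00, -0.57 and 0.0017 on arrays 1, 2 and 3. Spot 2 had 1.37, -0.60 and -0.0014. Array 1, with T in Cy5, lay well above 0, while the arrays with T in Cy3 lay at or below it. Once the dye trend was removed spot 1 had 0.07, 0.15 and 0.34, and spot 2 had 0.40, 0.34 and 0.50. All 6 values again lay in direction 1, and spot 2 was the further from 0 on each array. Without array 1 the centred T/C value was -0.29, and with the dye trend removed it was 0.33.

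In R/C, the centred and turned values of spot 1 were 0.66, 0.24 and -0.96 on arrays 1, 2 and 3. Spot 2 had 1.37, 0.37 and -1.07. Arrays 1 and 2, with R in Cy5, lay above 0, and array 3, with R in Cy3, lay about 1 log2 unit below it. After removal of the dye trend spot 1 had -0.13, -0.62 and -0.38, and spot 2 had 0.42, -0.63 and -0.32. Spot 1 was then in direction 2 on 3 of 3 arrays and spot 2 on 2 of 3, with array 1 the exception. Without array 1 the value with the dye trend removed was -0.49, without array 2 it was -0.10 and without array 3 it was -0.24. On centred values the result without array 3 was 0.66 and without array 2 it was -0.0020. Array 3 is the only one with R in Cy3, so the dyes do not cancel without it. With the dye trend removed, R/C was the only comparison with a spot value on the other side. Its SD over arrays, 0.39, was also the largest of the 3 comparisons in that setting. Of all pairs, 97.6% had a smaller R/C SD there, and the median was 0.14.

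**Figure D2:**
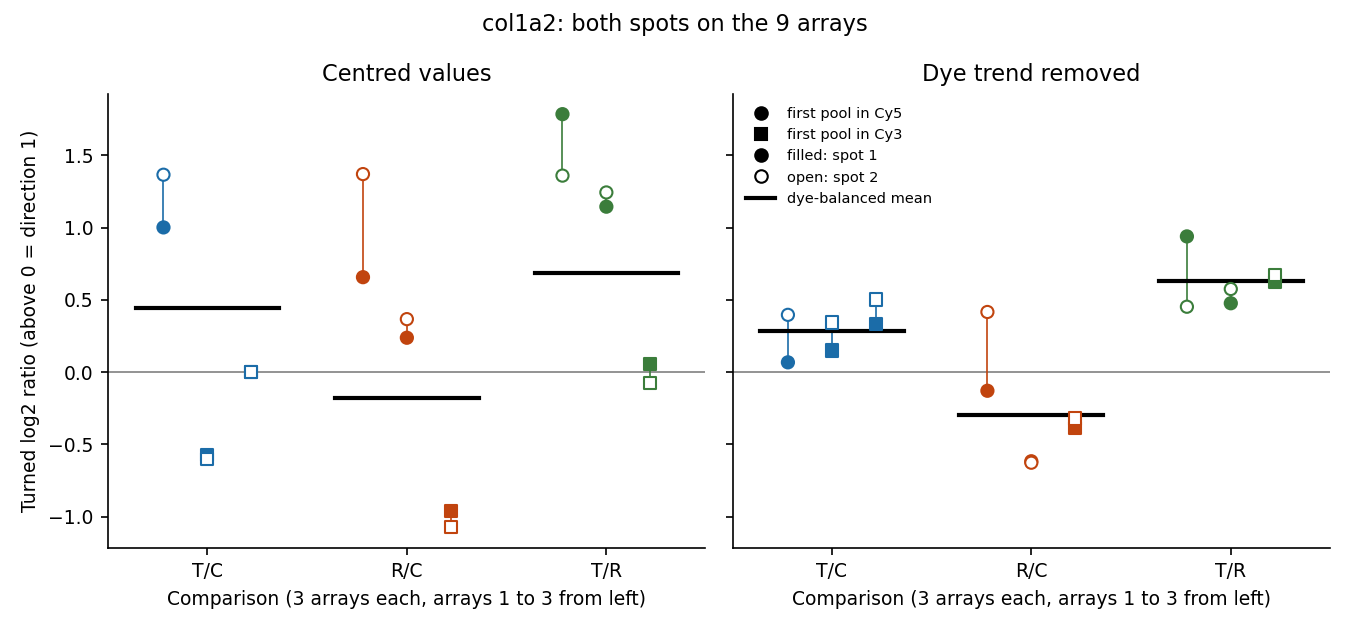
Turned log2 ratios (y axis) of both col1a2 spots on each of the 9 arrays, grouped by comparison (x axis), centred on the left and with the dye trend removed on the right. Circles have the first-named pool in Cy5 and squares have it in Cy3, filled symbols are spot 1 and open symbols spot 2, and black bars are dye-balanced means. With the trend removed all T/R and T/C spots lie above 0, and 5 of 6 R/C spots lie below it.

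The disagreement on R/C array 1 comes with a gap between the 2 spots. Spot 2 minus spot 1 was 0.71 there, a larger gap than in 97.9% of all pairs on that array, where the median gap was 0.16. Next came T/R array 1, with a gap of -0.43 (larger than in 88.1% of pairs), and T/C array 1, with 0.36 (80.7%). On the other 6 arrays the gap was between 0.0031 and 0.14 in size. Spot 2 had the higher centred ratio on 8 of 9 arrays. With the dye trend removed it was the higher only on T/C array 1 (0.33), R/C array 1 (0.55) and T/R array 2 (0.10). The gap on T/R array 1 was then -0.49, larger than in 93% of pairs. On centred values the mean size of the gap over the 9 arrays, 0.22, was larger than in 54.5% of pairs. By that measure the 2 spots were about as close as the neighbouring spots of other pairs usually were on these arrays. What set spot 2 apart on R/C array 1 was not tested.

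**Figure D3:**
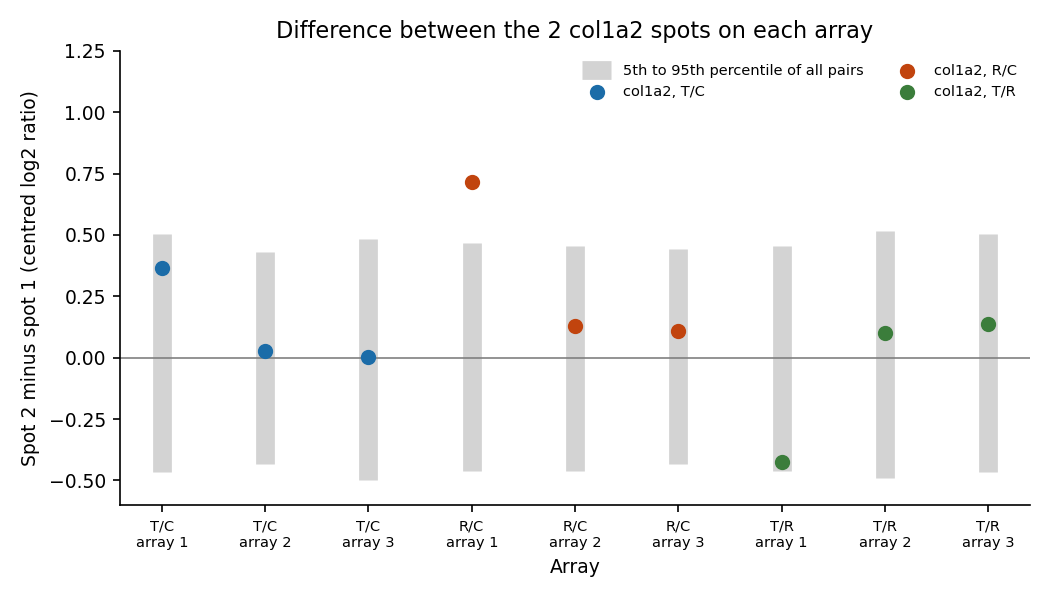
Spot 2 minus spot 1 of col1a2 in centred log2 ratio (y axis) on each of the 9 arrays (x axis). Grey bars run from the 5th to the 95th percentile of the same difference over all spot pairs of that array. Only R/C array 1, at 0.71 against a 95th percentile of 0.47, lies outside its bar.

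Taken separately, the spots placed the pools in the same order. Spot 1 gave dye-balanced means of 0.76 ± 0.87 for T/R, 0.36 ± 0.80 for T/C and -0.26 ± 0.84 for R/C (SD over 3 arrays). Spot 2 gave 0.61 ± 0.80, 0.53 ± 1.01 and -0.10 ± 1.23. After removal of the dye trend spot 1 had 0.67 ± 0.24, 0.16 ± 0.14 and -0.38 ± 0.24. Spot 2 then had 0.59 ± 0.11, 0.41 ± 0.08 and -0.21 ± 0.54. In that setting spot 1 set the control pool nearer to T, and spot 2 set it nearer to R.

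The loop of comparisons lets each ratio be reached by a second route, since T/R should also follow from T/C less R/C. For col1a2 that difference was 0.63 against a direct T/R value of 0.69, a misfit of -0.06. The values were 0.58 and 0.63 once the dye trend was removed, a misfit of -0.05. The SD of the misfit over all pairs was 0.19 in both settings, and 26.5% of pairs had a smaller misfit on centred values and 22.4% with the trend removed. The comparisons share pools, so this is a check of the arithmetic between arrays and not of the conditions.

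Least squares over all 9 arrays, fitting 2 differences between pools and 1 dye effect, uses both routes together. Its T/R value was 0.65 (SE 0.14, 6 residual degrees of freedom), with 0.47 for T/C and -0.17 for R/C. The fit after removal of the dye trend gave 0.61, 0.32 and -0.29 (SE 0.11). On that scale T lay 0.32 to one side of the control pool and R lay 0.29 to the other. The SE covers differences between hybridisations only and does not count the fitting of the curves. As col1a2 was chosen for its difference, the steps are not judged against it. The residual SD on centred values was 0.30, against a median of 0.20 over all pairs, and 90.6% of pairs had a smaller one. It was 0.24 with the trend removed, against a median of 0.18 over all pairs, and 80.3% of pairs had a smaller one. With the trend removed, the residuals of largest size were those of R/C array 1, at 0.43, and array 2, at -0.33. Those of the 6 arrays that carry T were then between -0.08 and 0.11. On centred values the contrast was weaker, with 0.42 and -0.29 on R/C arrays 1 and 2, and -0.29 and 0.29 on T/C arrays 2 and 3.

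No col1a2 spot reached a 2-fold difference with the same sign on all 3 arrays in any comparison. Over all 8736 spots that rule was met by 2.54% in T/C, 0.916% in R/C and 0.996% in T/R. Without the dye trend the shares were 2.17%, 0.916% and 0.996%. At a 1.5-fold threshold, spot 1 met the rule in T/R and spot 2 did not, on centred values. In that setting 4.22% of all spots met it in T/R, and 3.56% of all spots did so in direction 1. With the dye trend removed 2 of 2 col1a2 spots met it in T/R, where 5.12% of all spots did and 3.63% did so in direction 1. Spot 2, at a log2 ratio of 0.59, was only just past the threshold. With each curve fitted on the mean of the 6 arrays of the other comparisons, the T/R pair mean was 0.57, short of 1.5-fold. In T/C and R/C 0 of 2 spots met it in either setting, against 6.32% and 2.26% of all spots on centred values and 8.72% and 2.98% with the trend removed. Since col1a2 was chosen for its difference, nothing is read from these shares.

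Ranked by the size of the dye-balanced mean, col1a2 was number 167 of 4368 pairs in T/R, with 3.8% of pairs larger. It was number 731 in T/C (16.7% larger) and number 1472 in R/C (33.7% larger). On values without the dye trend the ranks were 169, 1078 and 576. The median size over all pairs in T/R was 0.17, the 95th percentile 0.61 and the largest value 2.17. The col1a2 value of 0.69 was thus just past the 95th percentile and far below the most changed pairs. Its T/R rank moved little with removal of the trend, whereas the order of T/C and R/C was turned round.

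**Figure D4:**
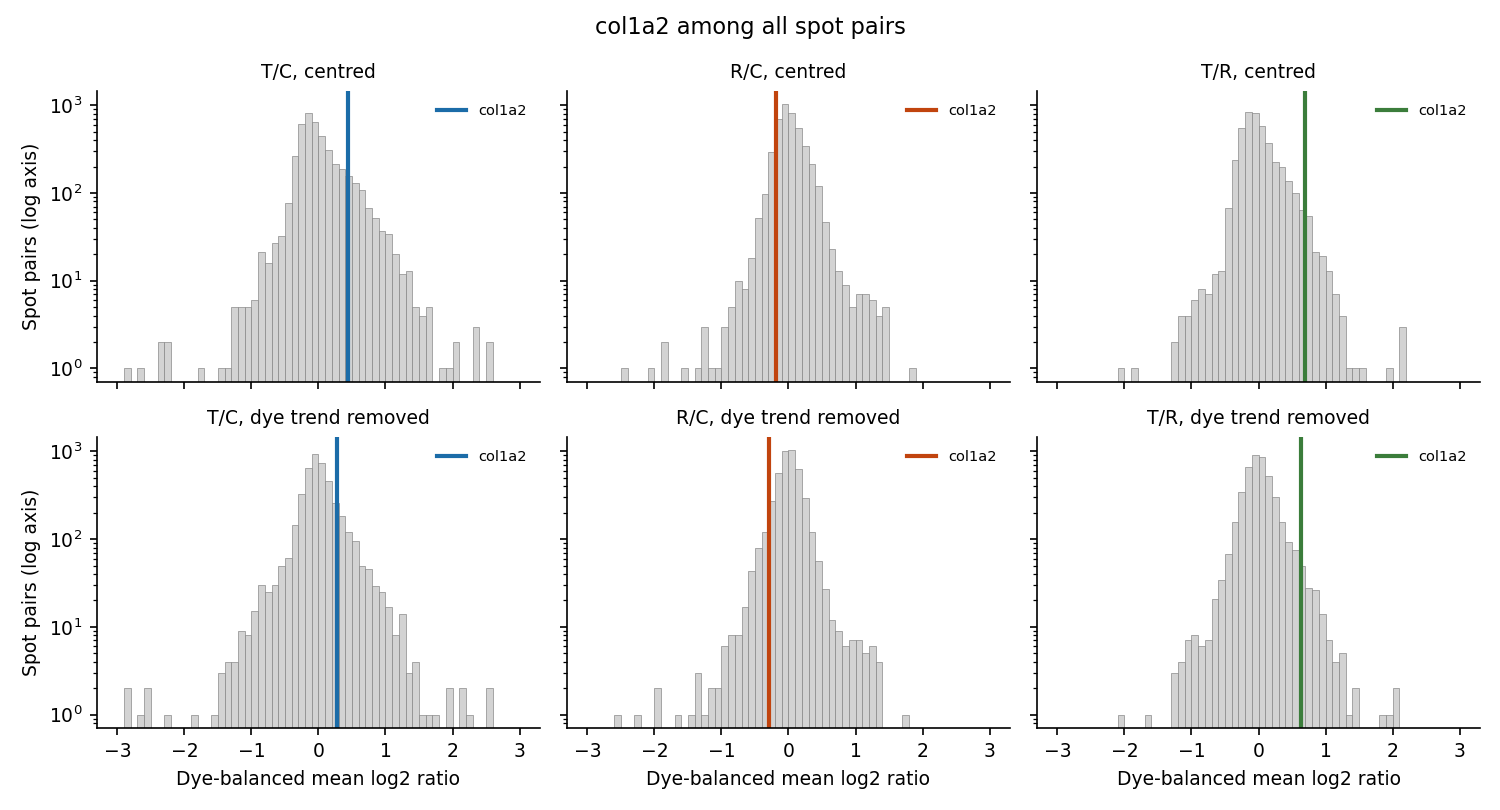
Histograms of the dye-balanced mean log2 ratio (x axis) of all 4368 spot pairs, as numbers of pairs on a log axis (y axis), for the 3 comparisons, centred above and with the dye trend removed below. Coloured lines mark col1a2, which lies in the right flank of T/R at 0.69 and 0.63.

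The other 3 named genes, tap1 (a subunit of the peptide transporter for class I major histocompatibility molecules), pck2 (mitochondrial phosphoenolpyruvate carboxykinase) and pparg (a nuclear receptor of fat storage), had smaller ratios. Their T/R sizes were 0.17 to 0.20 on the log2 scale, against 0.69 for col1a2. Removal of the dye trend gave 0.12 to 0.22, against 0.63. In T/C their sizes were at most 0.26, against 0.45 for col1a2. In R/C they were at most 0.17, against 0.18, so col1a2 hardly differed from them there. With the dye trend removed they were at most 0.22 against 0.28 in T/C, and 0.14 against 0.30 in R/C. The difference between col1a2 and these genes was not tested, as col1a2 was chosen from among them for its size.

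The pairs printed next to col1a2 had smaller T/R ratios. Reading the identifiers as 48 blocks of 13 rows and 14 columns, col1a2 lay in row 2, columns 5 and 6, of a block of 91 pairs. The block's median T/R value was -0.05 on centred values and 0.03 with the trend removed. The 4 pairs next to col1a2 in the block ran from -0.20 to 0.30 in T/R, and from -0.08 to 0.30 with the trend removed. Within its block col1a2 had the second largest T/R size, ranked 2 of 91 in both settings. It stood out less in the other comparisons, ranked 14 in T/C and 20 in R/C, and 18 and 9 with the trend removed. The highest T/C value among the 4 neighbours was 0.29 against 0.45 for col1a2, and 0.27 against 0.28 with the trend removed. Centring each block instead of each array gave 0.72 for T/R, 0.55 for T/C and -0.15 for R/C.

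The pairs whose pattern over the 9 arrays was most like that of col1a2 carry no gene name here. Likeness was the root mean square difference of turned pair means with the dye trend removed. The nearest pair began at spot 8030409, with a difference of 0.14. It had 0.58 ± 0.04 in T/R, 0.28 ± 0.16 in T/C and -0.09 ± 0.25 in R/C. These ratios and those that follow are with the dye trend removed. As the pairs were picked for likeness on these same values, ratios near those of col1a2 follow from the choice. The second began at spot 11021307, with a difference of 0.17 and ratios of 0.46 ± 0.02, 0.29 ± 0.05 and -0.12 ± 0.25. The next 2 pairs had differences of 0.18 each, with T/R values of 0.52 and 0.58. The median difference from col1a2 over the other 4367 pairs was 0.52. The 2 col1a2 spots differed from each other by 0.28 in root mean square, but this is a distance between single spots. The means of 91 pairs lay nearer than 0.28 to the col1a2 pair mean, a distance between pair means, so the 2 are not alike. The nearest pairs lay close together, with 0.18 for the fifth as well, and their order is not read further.

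**Figure D5:**
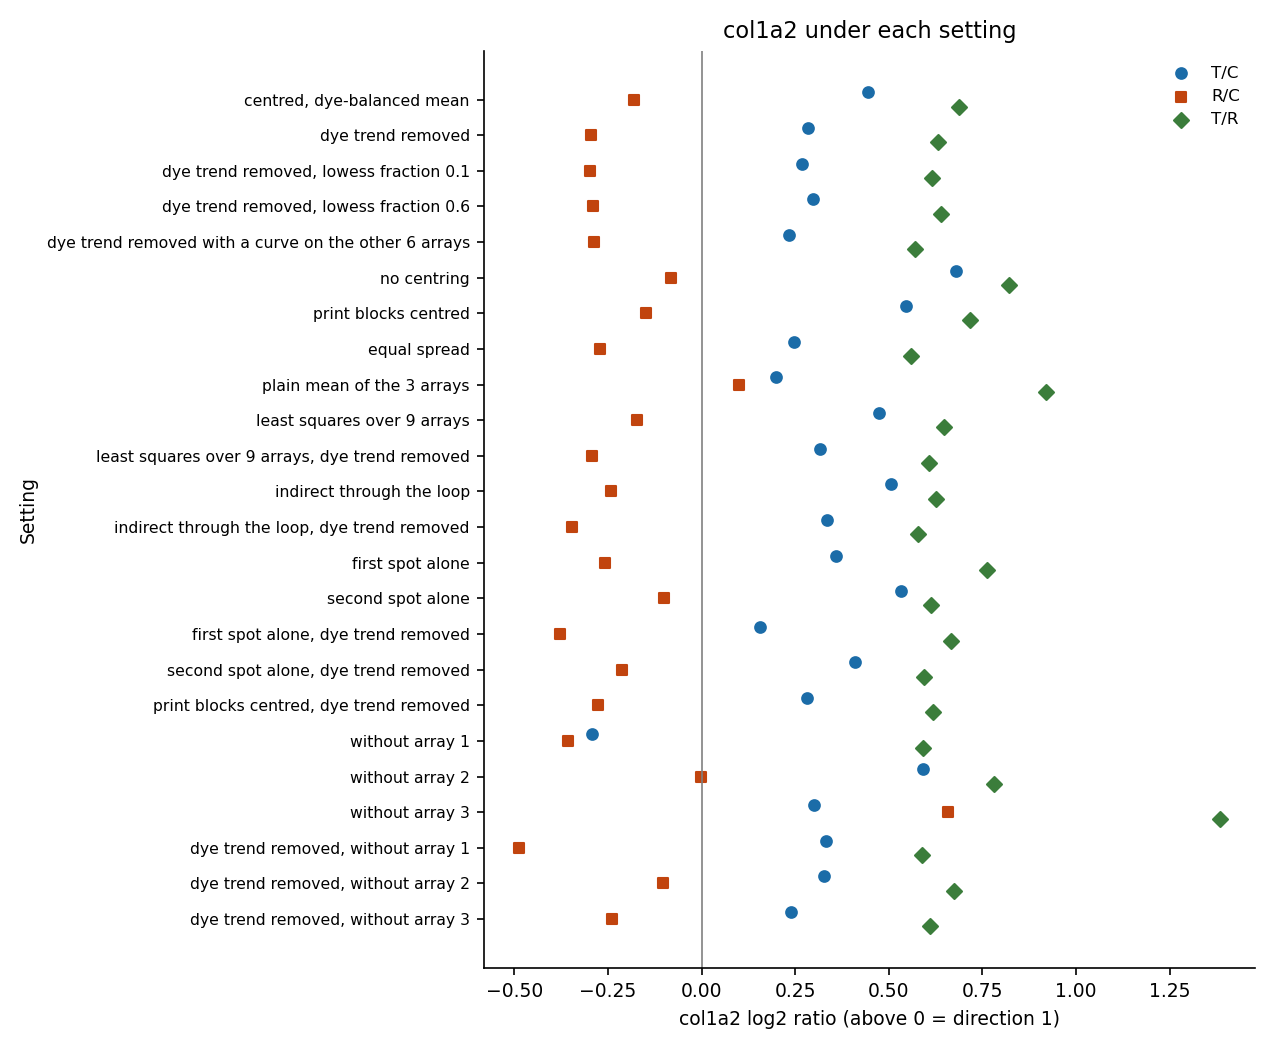
The col1a2 log2 ratio (x axis) in each comparison under each way of processing (y axis), with the value used throughout in the top line. T/R (diamonds) lies between 0.56 and 1.38 in every setting, T/C (circles) crosses 0 once and R/C (squares) crosses it in 2 settings. The crossings are in settings that leave the dyes unbalanced.

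Across the 23 alternative settings tried for each comparison, T/R ran from 0.56 to 1.38 and lay in direction 1 in all of them. On centred values the plain mean (0.92) and the value without array 3 (1.38) give more weight to the arrays with T in Cy5. With a 9-array mean of 0.76 that moves T/R further from 0, so these settings could not have brought it across. T/C ran from -0.29 to 0.68, with 1 setting on the other side, the one without array 1. R/C ran from -0.49 to 0.66, with 2 settings on the other side, the one without array 3 and the plain mean of the 3 arrays (0.10). These crossings, and that of T/C, came in settings that leave the dyes unbalanced, so they do not bear on the place of the control pool. Within the 12 settings with the dye trend removed, the ranges were 0.57 to 0.67 for T/R, 0.16 to 0.41 for T/C and -0.49 to -0.10 for R/C. No range crossed 0 in those 12 settings. All settings rework the same 9 arrays, so they are not separate checks of the pools. The curves follow the 9-array mean, which for this pair is also its fitted dye effect. Once they are subtracted, an unbalanced setting has little dye effect left to bring a value across 0. Staying on the same side is thus in part built in.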

How the data were processed

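Ratios were measured on 9 two-channel spotted cDNA arrays, with 20 ug of total RNA in each labelling, per the labels. The authors deposited 1 log2 ratio per spot and array, and 0 of 78624 values were missing. The scale is not named: it was read as log2 because, raised as powers of 2, 995 values equalled fractions of integers with denominators up to 1000, against 7 after a small random shift (15 and 14 for base e, 47 and 33 for base 10). The tolerance was the rounding of the last deposited decimal. Scanner, background treatment and filters are not stated in the labels. Intensities were not used here, so spots too dim or too bright to measure are not marked, and the number of arrays limits the precision.

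Computed here were median centring, turning by dye label, dye-balanced means, spot pair means, lowess removal of the dye trend, and least squares over 9 arrays (Python 3.11.15, numpy 2.4.6, pandas 2.3.3, statsmodels 0.14.6). The code was tested on a simulated loop, in which each array's dye trend was a fixed multiple of the 9-array mean. Curved trends like those of the real arrays were not simulated. A spot was called at 2-fold with the same sign on 3 arrays. No p-value was computed, since each condition is 1 pool. The members, lists and settings were chosen with earlier results of these data known. Named were col1a2, the other genes of the probe-to-gene table, and the 4 pairs most like col1a2. Alternatives covered centring, the dye trend, averaging, the model, the route through the loop, the spots and left-out arrays.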

Additional observations from a re-analysis of the deposited data

How the results depend on the processing

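The settings with each spot alone or print blocks centred after removal of the dye trend, and the counts with 1 array left out, were chosen after seeing the data. For col1a2 the plain mean of the 3 arrays, which leaves the dyes unbalanced, gave 0.10 in R/C against -0.18. Leaving out 1 array gave -0.29 to 0.59 in T/C, -0.36 to 0.66 in R/C and 0.59 to 1.38 in T/R on centred values. The values of -0.29, 0.66 and 1.38 came without the array of opposite dye order, which leaves the dyes uncancelled by construction. Once the dye trend was removed, the ranges became 0.24 to 0.33, -0.49 to -0.10 and 0.59 to 0.67. Of all spots, 222, 80 and 87 were called in the comparisons T/C, R/C and T/R, against 552, 197 and 369 at 1.5-fold, and 190, 80 and 87 with the dye trend removed. With an array left out the T/C count ran from 211 to 590, that of R/C from 80 to 1060 and that of T/R from 89 to 842. The sign rule then covers fewer than 3 arrays, so these counts are not under the same rule as those above. The highest counts, 590, 1060 and 842, also came without the array of opposite dye order. Leaving out either other array gave 211 to 318 in T/C, 80 to 90 in R/C and 89 to 104 in T/R. No paired analysis was possible because the numbers of the arrays carry no pairing across comparisons. Intensities were not used here, so how far background compressed the ratios of dim spots is unknown.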
